A study of Mus musculus with 4 samples.

Results

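The cytosolic ribosomal proteins are the protein parts of the ribosome that translates messages of the nuclear genome. They were taken as the probe sets annotated to exactly 1 gene symbol of the form Rpl, Rps or Rplp followed by a number, with an optional letter or l. This naming rule used no measured value. It took 103 of the 34945 probe sets with 1 symbol, which stand for 48 of the 18193 genes named on the array. Of the 48 genes, 25 had 1 probe set and 23 had several, up to 6. The genes were read through the probe set with the highest mean log2 signal.

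The arrays were single-colour Affymetrix arrays, 1 for each of 4 kinds of mouse blood cell. Granulocytes, the mature phagocytes of the myeloid lineage, came from marrow and were gated on granularity and bright Gr-1, and 99.4% of them had granulocyte morphology. The other cells were enriched on c-Kit beads, gated as free of lineage antigens (CD3, CD4 and CD8 of T cells, B220 of B cells, CD11b and Gr-1 of myeloid cells, Ter119 of red cells), and divided into HPC (haematopoietic progenitor cells, LKS-, without Sca-1), LT-HSC (long-term repopulating stem cells, CD34-LKS) and ST-HSC (short-term repopulating stem cells, CD34+LKS), where LKS cells lack lineage antigens and carry c-Kit and Sca-1. RNA of 50 to 200 cells of each kind, packed 50 or 100 at a time into emptied egg coats, went through 2 rounds of linear amplification. The sources used here do not give strain, age, sex or the number of animals. With 1 array for each kind of cell there is no replicate check and no test, so every difference below describes 4 arrays, and the number of arrays limits its precision.

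Each ribosome has a small subunit, which reads the message, and a large subunit, which joins amino acids and lets the chain out through a tunnel. Every ribosomal protein is needed in about equal amounts, and in mammals their messages share a tract of pyrimidines at the very start of the RNA (the TOP motif), through which the kinase mTOR controls their translation. Stem cells of the marrow are known for a low rate of protein synthesis and committed progenitors for a higher one, while mature neutrophils carry little RNA and few ribosomes.

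The start sites of 6 members are shown, taken toward the ends of the range described below. They were chosen among the brightly measured genes with 1 start site and a listed start region in RefSeq (build GRCm38.p6). Of these, Rpl41, Rpl11 and Rpl38 had, through their brightest probe sets, the largest differences between granulocytes and the other arrays. Rps2, Rplp0 and Rps10 had the smallest. Rps19 and Rpl19, with several start sites, and Rpl7 and Rps29, with no region listed, lay further out. Each line holds 100 bases, 50 before the start and 50 from it onward, in the direction of transcription. Capitals mark the pyrimidine run CTTTC and the ETS core CCGGAAG.
Rpl41: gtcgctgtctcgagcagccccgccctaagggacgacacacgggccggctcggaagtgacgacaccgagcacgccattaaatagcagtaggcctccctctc
Rpl11: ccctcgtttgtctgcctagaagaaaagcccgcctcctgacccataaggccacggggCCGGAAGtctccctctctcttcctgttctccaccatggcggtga
Rpl38: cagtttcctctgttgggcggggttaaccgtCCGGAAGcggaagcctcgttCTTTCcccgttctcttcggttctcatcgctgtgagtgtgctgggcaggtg
Rps2: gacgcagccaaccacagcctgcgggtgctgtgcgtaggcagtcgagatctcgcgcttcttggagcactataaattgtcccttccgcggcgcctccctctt
Rplp0: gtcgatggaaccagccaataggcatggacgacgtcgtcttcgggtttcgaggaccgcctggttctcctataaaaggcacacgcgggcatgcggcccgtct
Rps10: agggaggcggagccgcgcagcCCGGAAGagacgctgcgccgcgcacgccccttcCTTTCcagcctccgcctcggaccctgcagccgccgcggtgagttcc
The Rpl41 window is chr10:128549119-128549218 on the minus strand and the Rpl11 window chr4:136053344-136053443 on the minus strand. The Rpl38 window is chr11:114668530-114668629 on the plus strand and the Rps2 window chr17:24720013-24720112 on the plus strand. The Rplp0 window is chr5:115559417-115559516 on the plus strand and the Rps10 window chr17:27635195-27635294 on the minus strand. The Rpl41, Rps2 and Rplp0 lines hold neither motif. In the longer promoter windows described below, CCGGAAG was present for Rpl41 and Rps2 and not for Rplp0. The Rpl41 and Rps2 lines end in pyrimidine tracts without CTTTC, and the Rpl11 line holds such a tract too. In the Rps2 and Rplp0 lines the letters TATAAA lie after the listed start. Whether the listed starts are those used in these cells was not tested. In Rpl38 the run CTTTC begins at base 1 of the transcript, and in Rps10 at base 5.

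Promoter windows of 300 bases (250 before the start and 50 after it) were listed for 42 of the 48 members. The run CTTTC, searched on the sense strand within 20 bases of a start, was present in 12 of the 42 members (28.6%), against 5.78% of 14452 genes on the array and 4.48% of 67 genes for mitochondrial ribosomal proteins. The core CCGGAAG, searched on both strands of the whole window, was present in 20 of the 42 members (47.6%), against 15% of the genes on the array and 37.3% of the mitochondrial ones. The letters TATAAA on both strands were present in 14.3% of the members and 11.5% of the genes on the array, and GGGCGG on both strands in 57.1% and 57.3%. Matches of different motifs may share bases, and a match is a description of these letters and not of a binding site. The CTTTC search read only that run near listed starts, so a member without it may still hold another pyrimidine tract. Members with and without CTTTC near a start differed little in how far their granulocyte signal lay below the others. Among members with a mean signal of at least 10000 on the HPC, LT-HSC and ST-HSC arrays, the median of the smallest log2 difference of granulocytes was −1.27 for the 8 with CTTTC near a start and −1.23 for the 20 without it. It was −1.20 for the 13 with CCGGAAG and −1.48 for the 15 without it.

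The arrays shared 1 scale, with a 2% trimmed mean of 500.00 and medians of 132 intensity units for granulocytes, 114 for HPC, 120 for LT-HSC and 114 for ST-HSC. The ratio of 3′ to 5′ probe sets of actin, a sign of how far amplification reached along a transcript, was 5.75 on the granulocyte array and 12.2 to 16.1 on the other 3, while that of Gapdh was 12.4 for granulocytes, 17.8 for HPC, 14.9 for LT-HSC and 12.4 for ST-HSC. Values under 120.1, the median of all values, were set to that floor before log2. Of 11 granulocyte genes, 11 stood at least 2-fold above each other array in granulocytes, and 8 of 11 genes of stem cells lay at least 2-fold below all 3 there. Of 8 progenitor genes, 6 were at least 2-fold higher in HPC than in LT-HSC and 4 than in ST-HSC. Mpo, an enzyme of myeloid granules, had 32023 in HPC, against 18718 in ST-HSC. The LT-HSC array went against its gate in part, since 7 of the 11 granulocyte genes lay above the floor there (summed signal 22947, against 440407 in granulocytes, 1166 in HPC and 733 in ST-HSC) and so did 7 of 7 B-lineage genes (summed signal 14274, against 1535 in granulocytes, 7098 in HPC and 592 in ST-HSC). Results on LT-HSC are therefore given beside those of the other 2 arrays, and the part of such cells in them was not tested. In the granulocytes, 5 of 7 genes of cumulus cells lay above the floor (summed signal 8577, against 960 for HPC, 732 for LT-HSC and 270 for ST-HSC). Of 9 oocyte genes 5 did (summed signal 1601, against 790 for HPC, 1141 for LT-HSC and 819 for ST-HSC), with Zp3, a protein of the egg coat, under the floor on every array. Of 6 T and NK cell genes 4 did (4473, against 950 for HPC, 544 for LT-HSC and 464 for ST-HSC), mostly through Cd3d at 3890, and 4 of 8 monocyte and macrophage genes (16314, against 14538 for HPC, 967 for LT-HSC and 1613 for ST-HSC). The part of such cells in the granulocyte values was not tested.

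Ribosomal protein signals were lower in granulocytes than in the progenitors and stem cells, and the difference ran through both subunits. The median member had a signal of 6581 in granulocytes, against 25383 (HPC), 22865 (LT-HSC) and 25908 (ST-HSC). Against HPC, 30 of 48 members were at least 2-fold lower and 1 was higher, where 19.2% of all genes were lower and 13.3% higher. Against LT-HSC, 27 were lower and 1 higher (all genes 19.9% and 13.9%), and against ST-HSC 29 were lower and 1 higher (all genes 19.3% and 14.4%). The median log2 differences of granulocytes over HPC, LT-HSC and ST-HSC were −1.38, −1.18 and −1.20, where the median of all genes was 0 in each. The 3 comparisons share the granulocyte array. By any amount, 44 members were below HPC (all genes 37.5%), 43 below LT-HSC (37%) and 42 below ST-HSC (35.7%). Of the 48, 41 lay below all 3 at once, where 25.5% of all genes did. At least 2-fold below all 3 were 25 members (all genes 12.7%), and 28 were below HPC and ST-HSC when the LT-HSC array was left out. In bulk samples, fewer cells of a type and less RNA per cell cannot be told apart, and here each array was also scaled to the same trimmed mean.

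**Figure D1:**
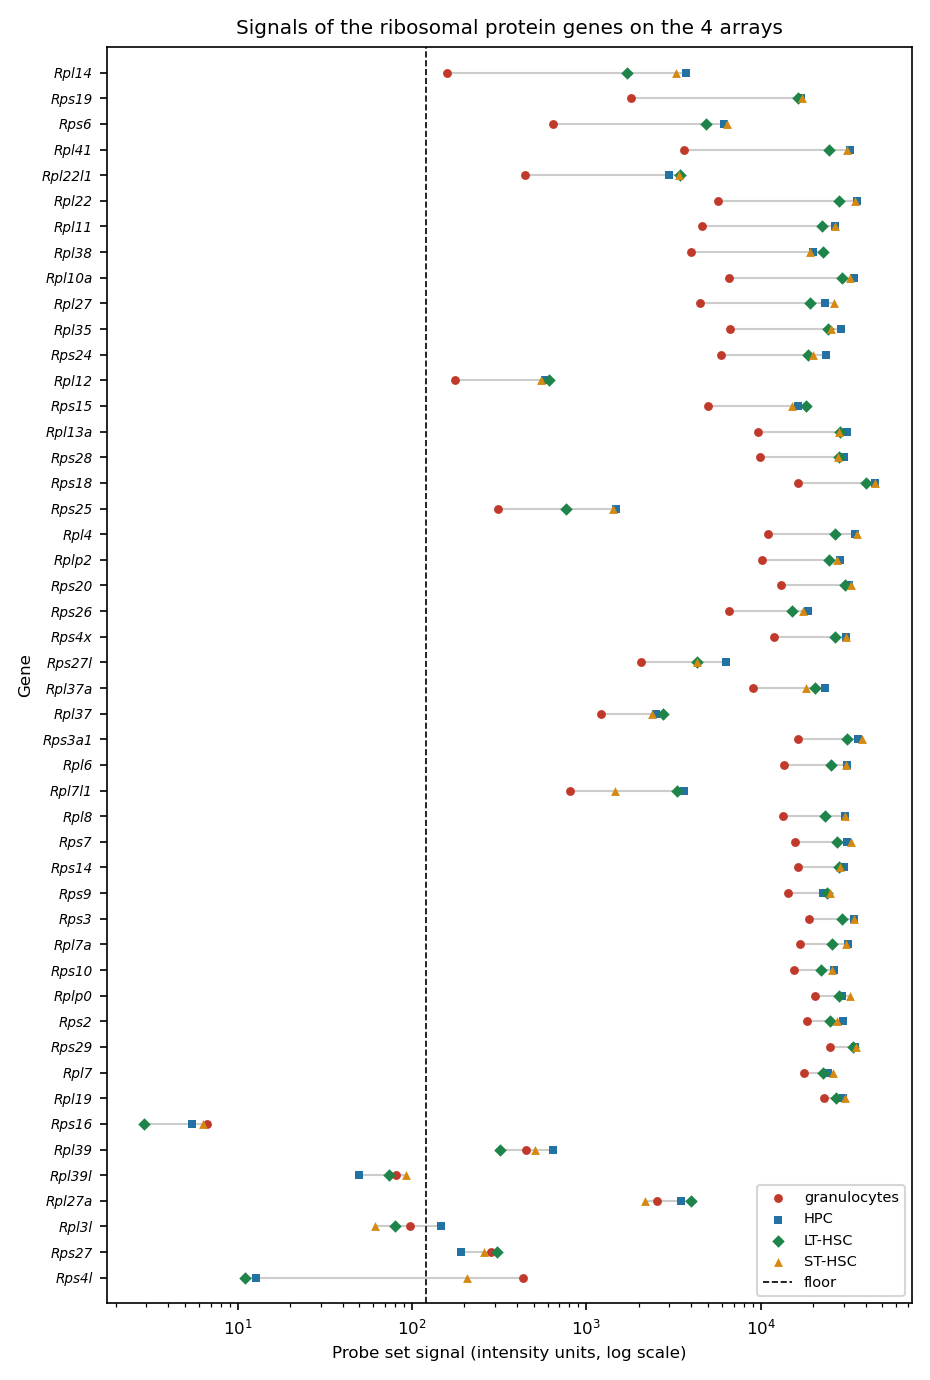
Signal of each of the 48 ribosomal protein genes (rows) on the 4 arrays, in intensity units on a log axis, with 1 point per array and a dashed line at the floor of 120.1. Rows are ordered by the smallest granulocyte difference, from Rpl14 at the top to Rps4l at the bottom, and in 41 of 48 rows the granulocyte point lies left of the other 3.

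Taken as a share of the summed signal of all genes, the 48 members made up 1.74% in granulocytes, against 4.62% (HPC), 4.31% (LT-HSC) and 4.68% (ST-HSC). Of the genes with a signal of at least 10000, members were 19 of 517 in granulocytes (3.68%), 33 of 374 in HPC (8.82%), 33 of 327 in LT-HSC (10.1%) and 33 of 339 in ST-HSC (9.73%). The members thus made up a smaller share of the strong signals on the granulocyte array, on which more genes reached that level. Members were also set beside other genes of like brightness. Of 33 members with a mean signal of at least 10000 on the HPC, LT-HSC and ST-HSC arrays, 33 were lower in granulocytes than on each of the 3 arrays, and 19 (57.6%) at least 2-fold lower than on all 3. Among the 336 genes of that brightness, members included, 70.5% were lower than in HPC, 64.6% than in LT-HSC, 68.5% than in ST-HSC, and 33.9% at least 2-fold lower than on all 3. Of the 303 that are not members, 95 (31.4%) were at least 2-fold lower than on all 3. This brightness was read without the granulocyte array. That choice by itself favours genes with lower granulocyte signals, among members and other genes alike.

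The large subunit comprised 19 members outside the stalk and the paralogs, of which 14, 12 and 13 were at least 2-fold lower in granulocytes than in HPC, LT-HSC and ST-HSC, with medians of −1.65, −1.27 and −1.55 and none higher. The small subunit comprised 20, of which 11, 10 and 12 were lower, with medians of −1.22, −1.04 and −1.27 and none higher. Of all genes 19.2%, 19.9% and 19.3% were lower in these pairs. The difference between the subunits was not tested. Within each subunit single genes ran from over 8-fold lower to less than 2-fold lower.

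Read through the brightest probe sets, Rps19, which has 1 probe set, had the largest difference among the 33 bright members. It lies in the head of the small subunit, and its human gene is the one most often altered in Diamond-Blackfan anaemia, an inherited failure of red cell production. Rps19 had 1817 intensity units in granulocytes, against 17108 (HPC), 16470 (LT-HSC) and 17296 (ST-HSC). The other 3 arrays lay close together, and granulocytes were 9.42-, 9.06- and 9.52-fold lower. Rpl41, a very short basic peptide of the large subunit, had 3637 in granulocytes, against 32518 (HPC), 24652 (LT-HSC) and 31146 (ST-HSC). Rpl11, which with Rpl5 and the 5S RNA binds Mdm2 and so raises p53 when assembly of ribosomes is disturbed, had 4603 in granulocytes, against 26861 (HPC), 22384 (LT-HSC) and 26551 (ST-HSC). The granulocyte array alone was low for both genes, by at least 6.78-fold for Rpl41 and at least 4.86-fold for Rpl11. Rpl11 has 1 probe set, whereas the size for Rpl41 depends on the probe set: a second bright one was 5.97- to 7.50-fold lower in granulocytes, and the 2 dim ones 1.19- to 2.57-fold and 2.13- to 2.87-fold. Rpl5 was not analysed here.

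Rpl38, which in mouse embryos is needed for translation of Hox messages, had 3993 in granulocytes, against 19900 (HPC), 22802 (LT-HSC) and 19211 (ST-HSC). Rpl10a, the protein of the mobile L1 stalk, had 6551 in granulocytes, against 34312 (HPC), 29223 (LT-HSC) and 32752 (ST-HSC). Rpl27, another gene of human Diamond-Blackfan anaemia, had 4468 in granulocytes, against 23266 (HPC), 19315 (LT-HSC) and 26347 (ST-HSC). Through their brightest probe sets these 3 genes were 4.32- to 5.90-fold lower in granulocytes, where 25.5% of all genes were lower than on all 3 other arrays. Both other probe sets of Rpl27 were bright too and only 3.12- to 3.79-fold lower. Together with Rpl41, Rpl11 and Rpl22, Rpl38, Rpl10a and Rpl27 formed the 6 bright members whose smallest difference, through the brightest probe set, was 4- to 8-fold.

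Rpl14, of the large subunit, had the largest ratios of all members, with 158 in granulocytes, against 3751 (HPC), 1713 (LT-HSC) and 3289 (ST-HSC). The granulocyte value lay near the floor and near 138, the highest signal of absent bacterial controls on that array, so the 10.8- to 23.8-fold difference is uncertain in size. Rps6, the target of S6 kinase and the classical marker of mTOR activity, had 643 in granulocytes, against 6132 (HPC), 4844 (LT-HSC) and 6396 (ST-HSC). Its granulocyte signal was 7.54-fold lower than in LT-HSC, and a further, dim probe set of Rps6 lay under the floor on all arrays but granulocytes, where it had 137. In all, 10 members were at least 4-fold below the other 3 arrays (all genes 5.34%).

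At the other end stood 14 bright members whose smallest difference was under 2-fold. Rpl19, of the large subunit, had 23050 in granulocytes, against 29634 (HPC), 26934 (LT-HSC) and 30484 (ST-HSC). Rps29, a zinc-binding protein of the head, had 24929 in granulocytes, against 34847 (HPC), 33653 (LT-HSC) and 35471 (ST-HSC). Rpl7 had 17756 in granulocytes, against 24295 (HPC), 22928 (LT-HSC) and 26136 (ST-HSC). These granulocyte values were the lowest of the 4 but only 1.17- to 1.47-fold so, well inside the SD of 0.91 to 0.94 log2 units by which probe sets of 1 ribosomal protein gene disagreed in the granulocyte comparisons. Rps3, at the channel through which the message enters, had 19012 in granulocytes, against 34357 (HPC), 29179 (LT-HSC) and 34179 (ST-HSC). The others, Rps3a1, Rps7, Rpl7a, Rps14, Rps2, Rps10, Rps9, Rpl8 and Rpl6 with Rplp0, were 1.35- to 2.32-fold lower. These sizes are those of the brightest probe sets. Another bright probe set of Rps10 was 7.03- to 15.8-fold lower in granulocytes, and its remaining bright ones 1.65- to 2.58-fold. A dimmer probe set of Rps3 was 9.54- to 17.5-fold lower.

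Between these ends lay 12 bright members with a smallest difference of 2- to 4-fold. Rps18, in the head, had 16285 in granulocytes, against 45261 (HPC), 40035 (LT-HSC) and 45546 (ST-HSC). Rps20, also in the head, had 13058 in granulocytes, against 32236 (HPC), 30450 (LT-HSC) and 32950 (ST-HSC). Rpl4, which reaches into the wall of the tunnel, had 11062 in granulocytes, against 34809 (HPC), 26598 (LT-HSC) and 35506 (ST-HSC). In each case the granulocyte signal was the lowest by 2.33-fold or more. Rps24 had 5964 in granulocytes, against 23646 (HPC), 18733 (LT-HSC) and 19872 (ST-HSC), and Rpl35, at the mouth of the tunnel, had 6649 in granulocytes, against 28985 (HPC), 24454 (LT-HSC) and 25407 (ST-HSC). Rpl37a marks the edge of this class, at 2.01-fold below ST-HSC, and 1 dim probe set of it was higher in granulocytes than on all 3 other arrays (550 in granulocytes, against 381 (HPC), 427 (LT-HSC) and 278 (ST-HSC)). At the same edge the dimmer Rpl37 lay just under 2-fold at 1.94-fold. Rps26, at the channel where the message leaves and another gene of human Diamond-Blackfan anaemia, had 6611 in granulocytes, against 18653 (HPC), 15139 (LT-HSC) and 17595 (ST-HSC). Rpl13a, which in human monocytes also serves outside the ribosome as a silencer of inflammatory messages, had 9649 in granulocytes, against 31099 (HPC), 28576 (LT-HSC) and 28230 (ST-HSC). Rps28 had 9970 in granulocytes, against 30093 (HPC), 28132 (LT-HSC) and 27786 (ST-HSC), and Rps15, of the head, had 4973 in granulocytes, against 16358 (HPC), 18240 (LT-HSC) and 15166 (ST-HSC). These 4 were lowest in granulocytes by at least 2.29-fold through their brightest probe sets. The other probe sets of Rpl13a, bright as well, were 3.20- to 4.80-fold, 4.92- to 6.19-fold and 6.73- to 7.99-fold lower.

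The stalk of the large subunit, which calls in the elongation factors, was measured through 3 of its 4 genes, Rplp1 being not analysed here. Rplp0, its base, had 20434 in granulocytes, against 29322 (HPC), 28030 (LT-HSC) and 32637 (ST-HSC). Rplp2, an acidic arm, had 10206 in granulocytes, against 28585 (HPC), 24592 (LT-HSC) and 27382 (ST-HSC). Rpl12, beside the base, had 177 in granulocytes, against 581 (HPC), 614 (LT-HSC) and 550 (ST-HSC). Granulocytes were the lowest for all 3 genes, at least 2-fold so for Rplp2 and Rpl12 and by at most 1.60-fold for Rplp0. Of 4 measured genes listed for the surroundings of the tunnel exit (of 8), Rpl22 and Rpl35 were at least 2-fold lower than on each other array and Rpl19 and Rpl39 were not. Of 10 measured genes of the head of the small subunit (of 14), 6 were at least 2-fold lower than on all 3 arrays. Of 11 measured mouse counterparts of human Diamond-Blackfan anaemia genes (of 19), 7 were. Of all 48 members 25 were, and of all genes 12.7%, and these parts were not tested against the other members.

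The paralogs, duplicated or like-named forms of the core genes, did not move as 1 group. Rpl22l1, the paralog of Rpl22, had 446 in granulocytes, against 2968 (HPC), 3462 (LT-HSC) and 3420 (ST-HSC). Rpl22 itself, which binds RNA and is needed in mice for development of αβ T cells, had 5668 in granulocytes, against 35872 (HPC), 28248 (LT-HSC) and 34777 (ST-HSC). Both members of this pair were lower in granulocytes on every comparison, by 6.66- to 7.77-fold for Rpl22l1 and by 4.98- to 6.33-fold for Rpl22. Rps27l, a p53 target related to Rps27, had 2058 in granulocytes, against 6322 (HPC), 4330 (LT-HSC) and 4289 (ST-HSC). Through this brightest probe set Rps27l was at least 2.08-fold lower in granulocytes. Its other probe sets were 1.33- to 2.48-fold and 1.91- to 3.68-fold lower. Rps27 itself had 283 in granulocytes, against 191 (HPC), 306 (LT-HSC) and 259 (ST-HSC), with no direction. Rpl7l1 had 804 in granulocytes, against 3624 (HPC), 3312 (LT-HSC) and 1463 (ST-HSC). Through this brightest probe set it was at least 2-fold lower than in HPC and LT-HSC but 1.82-fold lower than in ST-HSC. Its other probe sets were 1.31- to 2.44-fold and 2.35- to 3.01-fold lower in granulocytes.

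Of the 48 members Rps4l alone was at least 2-fold higher in granulocytes than on all 3 other arrays, where 8.9% of all genes were. It had 434 in granulocytes, against 12.8 (HPC), 11.1 (LT-HSC) and 206 (ST-HSC). HPC and LT-HSC lay under the floor, so granulocytes were at least 3.61-fold higher than each, and 2.11-fold higher than ST-HSC. Rps4x, the X-linked core gene to which Rps4l is like-named, had 11868 in granulocytes, against 31000 (HPC), 26721 (LT-HSC) and 31037 (ST-HSC), so the like-named pair ran in opposite directions. Rps4l rests on 1 dim probe set.

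The remaining paralogs and dim genes gave no direction. Rpl39l, the form known from the mouse testis, had 81.3 in granulocytes, against 49.7 (HPC), 74.3 (LT-HSC) and 92.5 (ST-HSC), all under the floor. Rpl3l, the form of striated muscle, had 96.9 in granulocytes, against 147 (HPC), 80.3 (LT-HSC) and 61.0 (ST-HSC). Rps16 had values of 2.9 to 6.7, under the floor on every array, although each ribosome holds this protein. Rpl39 of the exit tunnel had 454 in granulocytes, against 646 (HPC), 318 (LT-HSC) and 506 (ST-HSC), and Rpl27a had 2549 in granulocytes, against 3475 (HPC), 4005 (LT-HSC) and 2175 (ST-HSC). For these genes the granulocyte value lay among the others or no level was measured. Signals of different probe sets depend on the probes, so none of these levels ranks 1 gene against another.

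**Figure D2:**
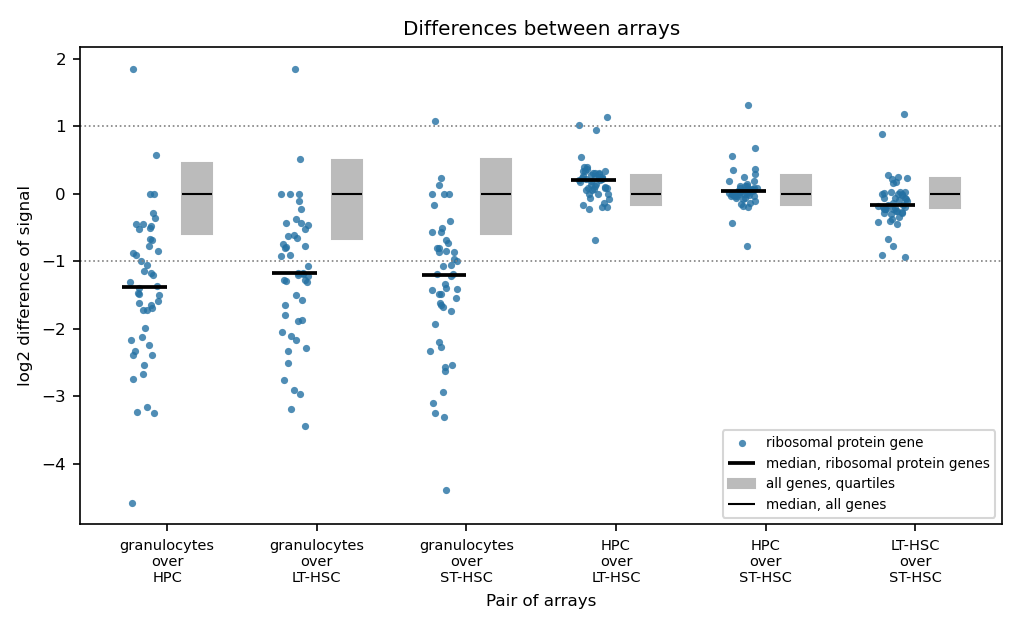
The log2 difference of signal in each of the 6 pairs of arrays, with 1 point per ribosomal protein gene, a thick line at their median, and a grey bar from the lower to the upper quartile of all 18193 genes. Points lie mostly below 0 in the 3 pairs with granulocytes (medians −1.38, −1.18 and −1.20) and near 0 in the other 3 (0.20, 0.04 and −0.16), and dotted lines mark 2-fold.

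Among the progenitors and stem cells the same genes differed little. In HPC against LT-HSC 2 of 48 members were past 2-fold on the higher side and 0 on the lower, where 5.32% of all genes were higher and 6.8% lower. In HPC against ST-HSC 1 was higher and none lower (all genes 6.47% and 6.21%), and in LT-HSC against ST-HSC 1 was higher and none lower (all genes 7.28% and 5.41%). The median log2 differences were 0.20 for HPC over LT-HSC, 0.04 for HPC over ST-HSC and −0.16 for LT-HSC over ST-HSC. Small as they were, the differences leaned 1 way: 37 of 48 members were higher in HPC than in LT-HSC by any amount (all genes 37.3%), 33 were lower in LT-HSC than in ST-HSC (all genes 33.8%) and 12 higher (33.7%), and in 31 LT-HSC was the lowest of the 3 (all genes 21.2%). All genes of high signal leaned the same way in part. Of the 33 bright members 3 were lower in HPC than in LT-HSC (26.2% of the 336 bright genes) and 14 lower in HPC than in ST-HSC (40.2%). Of the 33 bright members 28 (84.8%) were lower in LT-HSC than in ST-HSC, against 64% of the 303 bright genes that are not members (66.1% of all 336 together). The lean depended on scaling: the median of HPC over LT-HSC was 0 after quantile normalization, and that of LT-HSC over ST-HSC was 0.01 both after quantile normalization and after scaling to the hybridization controls, which left HPC over LT-HSC at 0.25. With a common 75th percentile the same medians were larger, at 0.39 for HPC over LT-HSC and −0.27 for LT-HSC over ST-HSC. The LT-HSC array also held granulocyte markers, and B-lineage markers were above the floor for 7 of 7 genes in LT-HSC and 6 of 7 in HPC, against 1 of 7 in ST-HSC; their part in these values was not tested.

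Some dim members stood further out between these 3 arrays. Rpl14, whose values are given above, was 1.13 log2 units higher in HPC than in LT-HSC and 0.94 lower in LT-HSC than in ST-HSC. Rps25, needed for initiation at internal ribosome entry sites, had 312 in granulocytes, against 1471 (HPC), 764 (LT-HSC) and 1424 (ST-HSC), a difference of 0.95 for HPC over LT-HSC and −0.90 for LT-HSC over ST-HSC. Rpl39 gave 1.02 for HPC over LT-HSC and −0.67 for LT-HSC over ST-HSC. In all 3 genes LT-HSC was the lowest of the 3 progenitor and stem cell arrays. Rpl27a ran the other way at 0.88 for LT-HSC over ST-HSC, and so did Rpl38 at 0.25. Rpl7l1 was 1.31 higher in HPC than in ST-HSC and 1.18 higher in LT-HSC than in ST-HSC through its brightest probe set, and both differences had the opposite sign through another (−0.70 and −0.90). Probe sets of 1 ribosomal protein gene disagreed here by an SD of 0.28 to 0.44 log2 units. This spread concerns single genes. It measures neither the error of a median over the members nor the variation between samples of 1 kind of cell.

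Bright probe sets of the same gene agreed on the direction in granulocytes but not on the size. Of the 103 probe sets of members, 66, 62 and 67 were at least 2-fold lower in granulocytes than in HPC, LT-HSC and ST-HSC, where 15.2%, 16.5% and 15.9% of all probe sets with 1 symbol were. Between the other arrays 1 probe set was at least 2-fold lower in HPC than in LT-HSC (all 7.09%), 2 in HPC than in ST-HSC (6.29%) and 2 in LT-HSC than in ST-HSC (4.92%), and 3 were higher in each of these pairs. In 20 genes that had several probe sets with a mean signal of at least 1000 on the other 3 arrays, 59 of 59 such probe sets were lower in granulocytes than the mean of those arrays. Of 2751 such probe sets over all genes, 1821 were. This choice also left out the granulocyte array, which by itself favours lower granulocyte signals. Rps18 shows the spread. Beside the brightest probe set, whose values are given above, a second gave 6520 in granulocytes, against 32200 (HPC), 26113 (LT-HSC) and 31035 (ST-HSC). A further bright one gave 2212 in granulocytes, against 21064 (HPC), 19344 (LT-HSC) and 22206 (ST-HSC). The granulocyte signal was thus 2.46- to 2.80-fold, 4.00- to 4.94-fold or at least 8.74-fold lower for 1 gene, while LT-HSC was the lowest of the other 3 arrays each time. Dim probe sets without a suffix gave the opposite sign for Rps18 (0.09 log2 units, granulocytes over the mean of the other 3) and for Rpl35 (0.50).

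**Figure D3:**
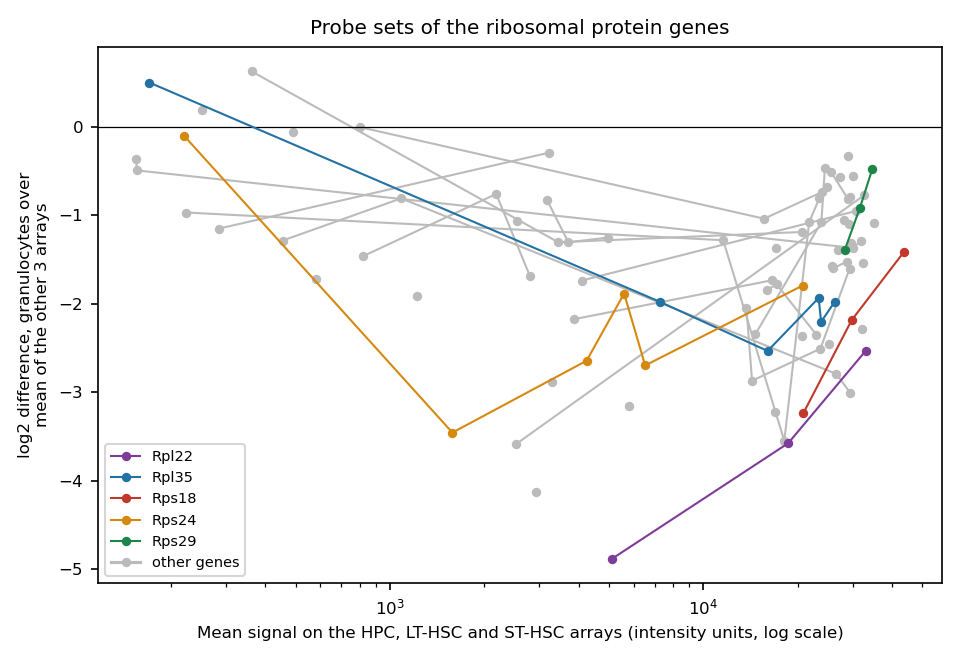
Each point is a probe set of a ribosomal protein gene, placed by its mean signal on the HPC, LT-HSC and ST-HSC arrays (intensity units, log axis) and by the log2 difference of granulocytes over the mean of those 3; lines join probe sets of 1 gene. Among the probe sets above 1000 of Rps18, Rps29 and Rpl22 the brightest has the smallest difference, and no probe set with a mean signal above 1000 from a gene with several lies above 0.

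In Rps29 the 3 probe sets were 1.35- to 1.42-fold, 1.82- to 1.94-fold and 2.26- to 2.99-fold lower in granulocytes, so that the gene passed 2-fold through 1 of its probe sets and not through the brightest. In Rpl22 they were 4.98- to 6.33-fold, at least 9.16-fold and 25.3- to 36.6-fold lower. In Rpl7 they were 1.29- to 1.47-fold, 1.92- to 2.24-fold and 3.93- to 6.06-fold lower. In all 3 genes the brightest probe set showed the smallest difference. Of the 20 genes with several probe sets above 1000, 14 (70%) had a brightest probe set less reduced than the dimmest. Over the whole array 39.1% of 1159 such genes did, and the cause was not tested. The member whose probe sets disagreed most was Rps24, over a range of 3.36 log2 units. A suffix for probes shared between transcripts was carried by 71 of the 103 probe sets. In 28 it was _a_at, for transcripts of the same gene. In 40 it was _x_at and in 3 _s_at, for probes that may also match other genes. Ribosomal protein genes have many processed copies in the mouse genome, and the signal of 1 gene and of its copies cannot be told apart here. Of the 32 probe sets with no such suffix, 13, 14 and 13 were at least 2-fold lower in granulocytes than in HPC, LT-HSC and ST-HSC. These were 40.6%, 43.8% and 40.6%, against 15.2%, 16.5% and 15.9% of all probe sets with 1 symbol. Their median log2 differences were −0.51, −0.53 and −0.28, smaller than the −1.47, −1.24 and −1.36 over all 103. A further 110 probe sets were annotated to several symbols of which 1 or more was a member's, and 68, 58 and 62 of these were at least 2-fold lower, with medians of −1.27, −1.07 and −1.19.

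Ribosomal proteins whose symbols lie outside the naming rule were read beside the members. Rpsa, a small subunit protein also known as the laminin receptor, had 11724 in granulocytes, against 37738 (HPC), 32558 (LT-HSC) and 36518 (ST-HSC). Fau, which encodes a ubiquitin-like protein fused to the small subunit protein eS30, had 15091 in granulocytes, against 13332 (HPC), 12112 (LT-HSC) and 11198 (ST-HSC). Rpsa lay with the members, 2.78- to 3.22-fold lower in granulocytes, while Fau was slightly higher there, by 0.18, 0.32 and 0.43 log2 units over HPC, LT-HSC and ST-HSC.

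**Figure D4:**
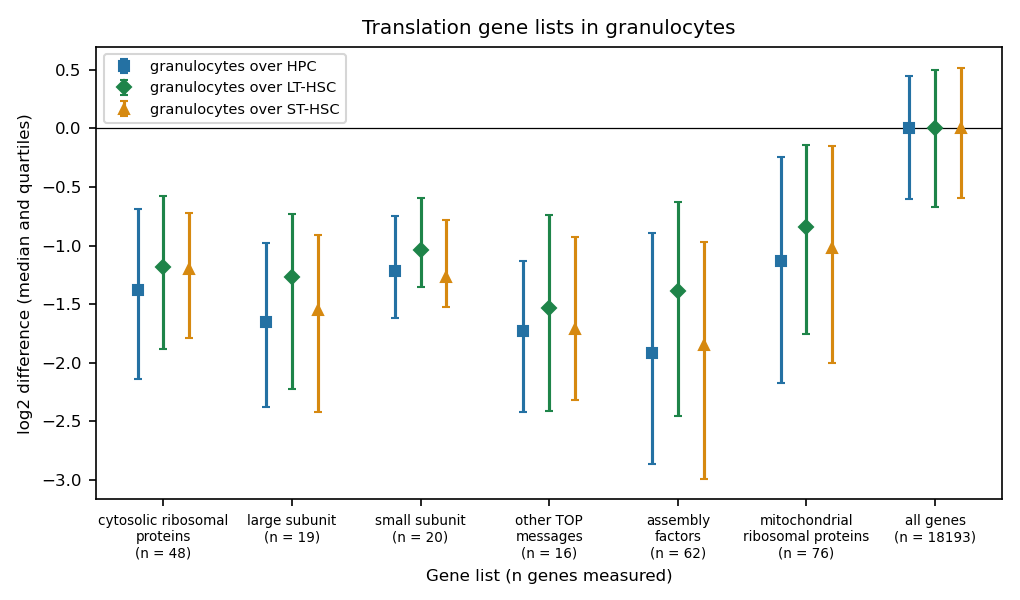
Median log2 difference of granulocytes over each of the other 3 arrays (symbols) with the lower and upper quartile (bars) for the ribosomal proteins, their subunits, other gene lists of translation and all genes. All 3 medians lie below −0.8 in the lists shown and at 0 for all genes; the paralogs alone and the regulators, with 2 or more medians nearer 0, are not drawn.

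Other genes known for TOP messages, most of them translation factors but also the histone chaperone Nap1l1, the RNA-binding protein Hnrnpa1 and Tpt1, were mostly lower in granulocytes as well: 12, 11 and 12 of 16 measured (of 17 listed) were at least 2-fold lower than in HPC, LT-HSC and ST-HSC, with medians of −1.73, −1.53 and −1.71. Of all genes 19.2%, 19.9% and 19.3% were lower in these pairs. Eif4b, a helper of the helicase that opens messages for the small subunit, had 725 in granulocytes, against 9516 (HPC), 10007 (LT-HSC) and 10056 (ST-HSC). Eef2, which moves the ribosome along the message, had 7340 in granulocytes, against 22453 (HPC), 22501 (LT-HSC) and 25149 (ST-HSC). Eef1a1, which brings in the charged tRNAs, had 32539 in granulocytes, against 37748 (HPC), 29588 (LT-HSC) and 38306 (ST-HSC), and Tpt1 had 44265 in granulocytes, against 35322 (HPC), 29263 (LT-HSC) and 35928 (ST-HSC). The TOP genes thus ran from Eif4b, at least 13.1-fold lower in granulocytes, to Tpt1, which was 1.23- to 1.51-fold higher there than on each other array, while Eef1a1 was higher than in LT-HSC only.

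Factors that assemble the ribosome in the nucleolus were lower too: 45, 41 and 46 of 62 measured (of 63) were at least 2-fold lower in granulocytes than in HPC, LT-HSC and ST-HSC, while 3, 2 and 2 were higher, with medians of −1.92, −1.39 and −1.85. Of all genes 19.2%, 19.9% and 19.3% were lower in these pairs, and 13.3%, 13.9% and 14.4% higher. Ncl (nucleolin) had 966 in granulocytes, against 8293 (HPC), 5501 (LT-HSC) and 10886 (ST-HSC). Npm1 (nucleophosmin) had 1133 in granulocytes, against 15617 (HPC), 12244 (LT-HSC) and 18310 (ST-HSC). Both were lowest in granulocytes and, among the other 3 arrays, lowest in LT-HSC. The median of the list for LT-HSC over ST-HSC was −0.39. At least 2-fold lower in LT-HSC than in ST-HSC were 7 of 62 (all genes 5.41%), and 1 was higher (all genes 7.28%). Polr1a, the large subunit of RNA polymerase I, ran against the list with 565 in granulocytes, against 244 (HPC), 394 (LT-HSC) and 168 (ST-HSC).

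The regulators of ribosomal protein genes and of translation showed no shared direction. Of 12 measured (of 14), 3, 3 and 2 were at least 2-fold lower in granulocytes than in HPC, LT-HSC and ST-HSC, while 0, 3 and 2 were higher, with medians of −0.07, −0.12 and −0.46. For this list and the next, the shares of all genes in these pairs were 19.2%, 19.9% and 19.3% lower and 13.3%, 13.9% and 14.4% higher. Mtor had 440 in granulocytes, against 2395 (HPC), 1978 (LT-HSC) and 944 (ST-HSC). Myc, which drives transcription of ribosome genes, had 494 in granulocytes, against 480 (HPC), 386 (LT-HSC) and 641 (ST-HSC). Mtor was thus lowest in granulocytes, and the Myc signal of granulocytes lay among the others. The separate set of mitochondrial ribosomal proteins, which translate the messages of the organelle's own genome, had 44, 33 and 38 of 76 genes at least 2-fold lower in granulocytes than in HPC, LT-HSC and ST-HSC, while 3, 2 and 7 were higher, with medians of −1.13, −0.84 and −1.02. At least 2-fold below all 3 arrays were 29 of these 76 and 25 of the 48 cytosolic genes (all genes 12.7%), and the difference between the 2 sets was not tested.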

How the data were processed

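The authors deposited a linear intensity for each of 45101 probe sets on each of 4 arrays. The sources used here name no summary software and hold no detection calls. The equal trimmed means show that the authors' values share 1 scale, and they were used as deposited. Leaving out 64 controls, 34945 probe sets had 1 symbol in GEO's platform annotation, 932 several and 9160 none used here. All 48 members had the same symbol in RefSeq by Entrez number.

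Values under the floor of 120.1 were set to it before log2. A difference is the log2 signal of the first-named array minus that of the second, and genes were called at 2-fold. Against an array under the floor, a ratio is a lower bound. Named members were the 10 brightest, the 5 with the largest difference in each direction of each pair whose other probe sets above the floor had the same direction, every member on the minority side, the stalk, 5S particle and paralog genes, and the member whose probe sets disagreed most; other names were chosen with their values known. The members and lists were chosen with earlier results of these data known. The settings varied were the scaling, the floor, the choice of probe set, the filter on dim genes, the threshold and the paralogs. With 1 array for each kind of cell no test was possible. The procedure was tested on simulated data, in which all probe sets of a gene were given the same change. That simulation therefore could not test the choice between probe sets that disagree. The scripts ran in Python 3.11.15 with pandas 2.3.3, numpy 2.4.6, matplotlib 3.10.9 and scipy 1.17.1. Promoter sequences are those of RefSeq, GRCm38.p6.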

Additional observations from a re-analysis of the deposited data

How the results depend on the processing

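The median difference of the members kept its sign for granulocytes in all 12 alternatives, at −2.01 to −0.52 over HPC, −1.77 to −0.65 over LT-HSC and −1.59 to −0.68 over ST-HSC. Scaling moved the median of all genes above the floor by −0.45, −0.38 and −0.12 in these pairs with the hybridization controls and by 0.04, 0.19 and 0.14 with a common 75th percentile; relative to that shift the members' medians were −1.56, −1.39 and −1.47 with the first and −1.28, −1.03 and −1.12 with the second. The share of all calls that were lower in granulocytes than in HPC, LT-HSC and ST-HSC was 59%, 58.8% and 57.2% as deposited, 80.1%, 79.4% and 71.9% with the hybridization controls and 52.5%, 45.1% and 47.9% with the 75th percentile. Counts of members at least 2-fold apart in either direction were 31, 28 and 30 in the granulocyte pairs, 2 for HPC over LT-HSC, 1 for HPC over ST-HSC and 1 for LT-HSC over ST-HSC, with 25 lower than all 3. With the 75th percentile they became 30, 18 and 24 in the granulocyte pairs, 16 for all 3 and 3 for LT-HSC over ST-HSC. With the hybridization controls the granulocyte pairs gave 43, 41 and 37, with 37 for all 3, and LT-HSC over ST-HSC became 2. Quantile normalization gave 35, 36 and 34 in the granulocyte pairs and 32 for all 3. A floor at the 75th percentile gave 1 for HPC over LT-HSC, and one at the 25th gave 3 for HPC over ST-HSC and 2 for LT-HSC over ST-HSC. Probe sets without a suffix, which cover 25 genes, gave 12, 13, 12, 4, 3 and 2 in the order above and 10 for all 3. Every probe set on its own (103) gave 67, 63, 68, 4, 5 and 5, and 57 for all 3. A threshold of 4-fold gave 13, 11, 11, 0, 0 and 0, and 10 for all 3, and one of 1.5-fold gave 4, 3 and 6 in the last 3 pairs. Without the paralogs the last 2 pairs gave 0 and 0. The 33 members of mean signal at least 10000, a setting chosen after seeing the data (as was leaving out the LT-HSC array), gave 0, 0 and 0 in the last 3 pairs. Where fewer genes or another threshold did not fix these changes by construction, the cause was not tested. Of single genes, Rpl7l1 reversed with its first probe set (HPC over ST-HSC −0.70, LT-HSC over ST-HSC −0.90), Rps18 with its first or its unsuffixed probe sets (granulocytes over the mean of the other 3, 0.09) and Rpl35 with its unsuffixed one (0.50). No paired analysis was possible because each kind of cell has 1 array. Signal near the floor limits Rpl14, Rpl12, Rps4l and the genes with no direction.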

Other observations

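The array also carries control probe sets for 18S ribosomal RNA, the RNA of the small subunit, which has no poly(A) tail and is not meant to be amplified. The 3′ probe set had 2157 intensity units in granulocytes, against 940 (HPC), 2004 (LT-HSC) and 717 (ST-HSC). The middle probe set had 1929 in granulocytes, against 769 (HPC), 11235 (LT-HSC) and 712 (ST-HSC). The 5′ probe set had 4677 in granulocytes, against 508 (HPC), 16644 (LT-HSC) and 1333 (ST-HSC). LT-HSC was thus far above the other arrays through 2 of the 3 probe sets, and granulocytes lay above HPC and ST-HSC through all 3, unlike the messages of the ribosomal proteins. With 1 array for each kind of cell, a property of the array and of the cells cannot be told apart.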
